A study of Mus musculus with 6 samples.

Results

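Stellate ganglia hold the cell bodies of sympathetic neurons that send noradrenergic fibres to the heart, and 7 genes for the storage, reuptake and breakdown of their transmitter were followed here: Slc18a1, Slc18a2, Slc6a2, Slc22a3, Maoa, Maob and Cyb561. Their probe sets were taken from the array annotation wherever it gave exactly 1 gene symbol and that symbol was on the list. This found 12 probe sets of 6 genes among 18193 genes annotated in the series, namely 3 for Slc18a1, 1 for Slc18a2, 4 for Slc6a2, 2 for Maoa, 1 for Maob and 1 for Cyb561. Slc22a3 had none under this rule and was not analysed here. The arrays came from 3 male C57/Bl6 mice studied 8 weeks after transverse aortic constriction (TAC), a surgical narrowing of the aorta that makes the left ventricle pump against a raised pressure, and from 3 male C57/Bl6 mice studied 8 weeks after a sham operation. No genetic change or drug is named in the labels for either group. Each array was an Affymetrix mouse genome chip carrying RNA of both stellate ganglia from 1 animal, so the measurement is of the whole tissue, neurons together with glia, vessels and connective tissue.

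In a sympathetic varicosity, noradrenaline is packed into vesicles by a vesicular monoamine transporter that exchanges protons for amines. Dopamine beta-hydroxylase makes noradrenaline inside those vesicles with electrons from ascorbate, which cytochrome b561 passes across the vesicle membrane. After release, most of the transmitter is taken back into the neuron by the noradrenaline transporter, and what is not repacked is deaminated by monoamine oxidase on the outer mitochondrial membrane. Loss of noradrenaline reuptake in the heart is a known feature of heart failure. Transcripts for these proteins are made in the cell bodies of the ganglion, and a difference in a bulk ganglion cannot separate a difference in the number of cells of a type from one in the RNA per cell.

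The tissue was checked against markers of its neurons. Of 13 listed markers of noradrenergic neurons, 12 were above the floor used here, a mean log2 intensity of 4 over the 6 arrays, below which a probe set is called dim. Their mean log2 intensity was 12.59 to 12.65 on the TAC arrays and 12.57 to 12.60 on the sham arrays, a difference of 0.04. The list also holds genes of neurons at large, such as Snap25, Stmn2, Uchl1 and Prph. Of the 12, 6 had a higher TAC mean and 6 a lower one. For 2 of them, Th and Snap25, every TAC array was above every sham array, as for 9.02% of all probe sets above the floor. All 6 arrays correlated at 0.980 to 0.994 over the 17550 probe sets above the floor, and TAC B had the lowest correlations. Brown fat and skeletal muscle transcripts varied between arrays of the same group. The brown fat markers averaged 5.51 to 6.99 on the TAC arrays, highest on TAC B, and 5.76 to 8.44 on the sham arrays, highest on sham C. The skeletal muscle markers averaged 3.63 to 5.73 on the TAC arrays and 3.39 to 7.71 on the sham arrays.

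Of the 12 probe sets, 10 lay above the floor and were tested with limma, and 2 of Slc18a1 were dim. Over all 17550 probe sets tested, limma called 0 at a Benjamini-Hochberg adjusted p under 0.05 (0% called), with 1594 (9.08%) at an unadjusted p under 0.05. The smallest adjusted p of all was 0.141. No difference in storage, reuptake or breakdown transcripts therefore passed the test. What the data give is the size and spread of each difference. At an unadjusted p under 0.05 there were 2 member probe sets higher after TAC, where 6.03% of all probe sets were, and 1 lower, where 3.05% were. The 3 TAC arrays and the 3 sham arrays did not overlap for 4 of the 10 member probe sets, against 17.9% of all probe sets tested. Of these, 2 were higher after TAC and 2 lower, where the shares over all probe sets were 9.02% and 8.85%. The median log2 difference over the 10 member probe sets was 0.05, and over all probe sets tested 0.03.

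**Figure D1:**
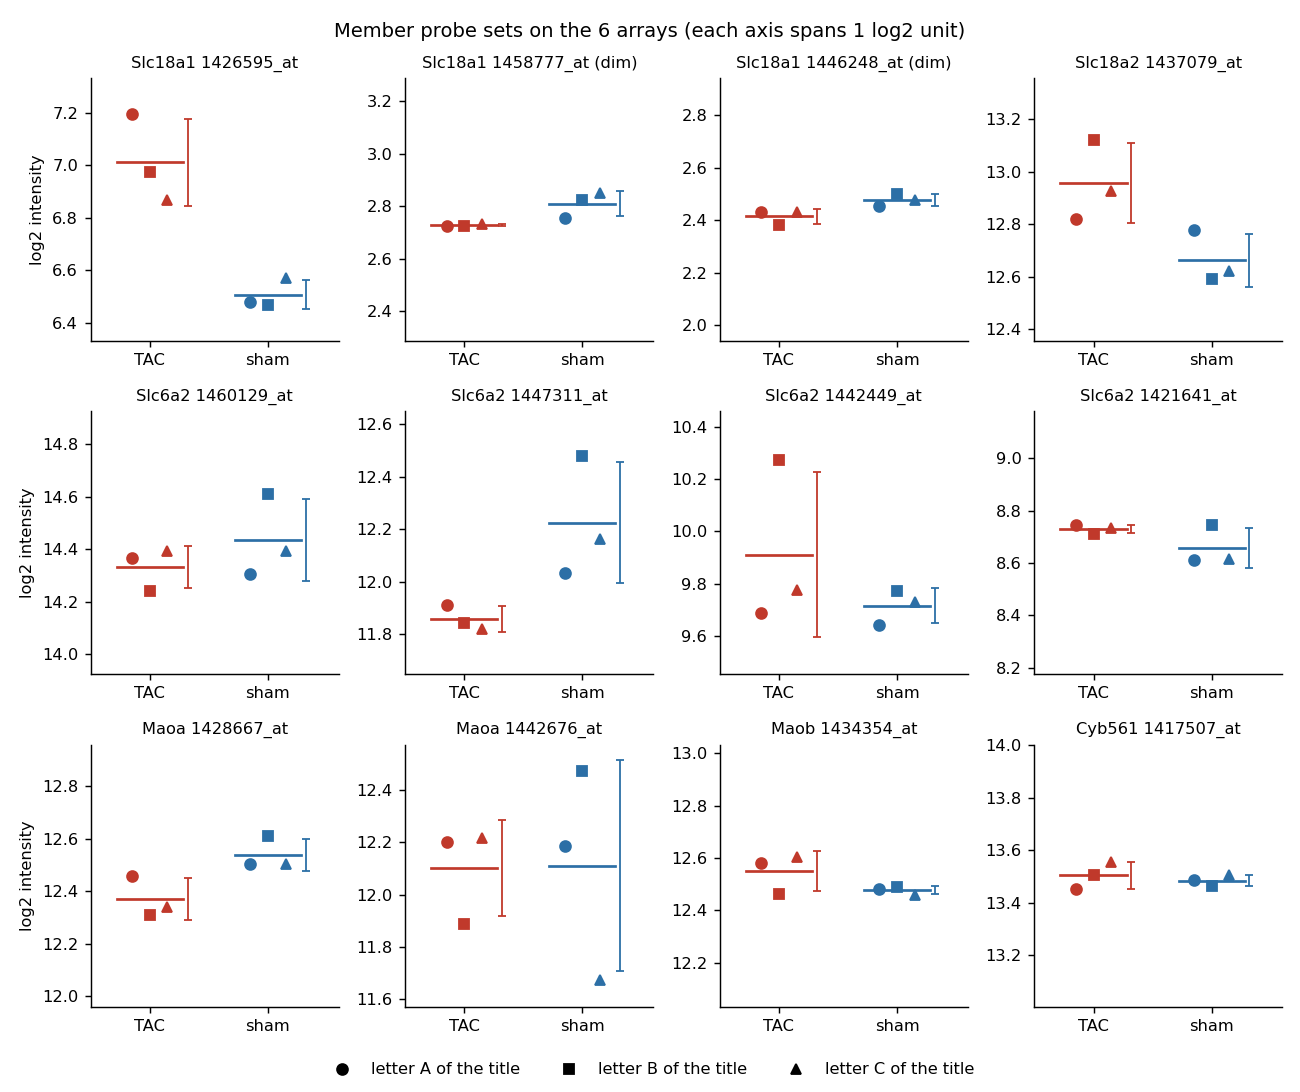
Log2 intensity of each of the 12 member probe sets on the 3 TAC arrays (red, left) and the 3 sham arrays (blue, right); horizontal lines are group means, bars beside them the SD (n = 3), and marker shapes the letter in the array's title. Slc18a1 1426595_at lies between 6.87 and 7.19 on the TAC arrays and between 6.47 and 6.57 on the sham arrays, while Cyb561 1417507_at stays between 13.45 and 13.55 on all 6.

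The vesicular monoamine transporters had the largest positive differences among the genes of this list. Slc18a1 encodes VMAT1, the vesicular transporter known mainly from neuroendocrine cells such as adrenal chromaffin cells and the small intensely fluorescent (SIF) cells of sympathetic ganglia. Its probe set 1426595_at measured 7.19, 6.97 and 6.87 on the log2 scale on TAC A, B and C, against 6.48, 6.47 and 6.57 on sham A, B and C. Every TAC array was above every sham array. The group means were 7.01 ± 0.17 in TAC ganglia and 6.51 ± 0.06 in sham ganglia (SD, n = 3 each), a log2 difference of 0.50 (SE 0.10, 95% interval 0.25 to 0.76). On the linear scale this is 1.42-fold, with an interval of 1.19-fold to 1.69-fold. Limma gave an unadjusted p of 0.00245 and an adjusted p of 0.512, and the exact two-sided permutation test over the 6 arrays gave p = 0.1, the smallest that 3 against 3 allows. The TAC values spanned 0.33 and the sham values 0.10, so the difference of the means was larger than the spread within either group.

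The other Slc18a1 probe sets gave no second reading of the transcript. Probe set 1458777_at measured 2.73, 2.73 and 2.73 on TAC A, B and C, against 2.76, 2.83 and 2.85 on sham A, B and C. Probe set 1446248_at measured 2.43, 2.38 and 2.43 on the TAC arrays, against 2.45, 2.50 and 2.48 on the sham arrays. Both were lower on every TAC array, by 0.08 and 0.06 on the log2 scale, opposite in direction to 1426595_at. The same shift ran through the dim part of the array: of 27487 dim probe sets, 87.0% had a lower TAC mean and 71.6% had every TAC array below every sham array. The value for Slc18a1 therefore rests on 1 probe set.

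Markers of chromaffin and SIF cells are given beside Slc18a1, because VMAT1 is known from those cells. Of 8 listed symbols, with Penk and Penk1 naming the same gene, 4 were above the floor (Pnmt, Chga, Chgb and Htr3a). Their summed linear intensity was 9003 to 10504 on the TAC arrays and 7551 to 7793 on the sham arrays, groups that did not overlap. Pnmt, the adrenaline-forming enzyme and the most specific of them, measured 6.01, 5.95 and 6.01 on TAC A, B and C, against 5.85, 6.05 and 6.03 on sham A, B and C; its groups overlapped. Chgb, which sympathetic neurons also express, was the brightest of the 4 and gave most of the summed intensity. Its values were 12.47 to 12.69 on the TAC arrays and 12.11 to 12.17 on the sham arrays. Penk, Dlk1 and Npff were dim on average. Chga, a chromogranin of dense-core vesicles, measured 10.68, 10.88 and 10.76 on the TAC arrays, against 10.55, 10.58 and 10.74 on the sham arrays. Htr3a, a serotonin-gated channel subunit, measured 10.66, 10.69 and 11.04 on the TAC arrays, against 10.45, 10.78 and 10.49 on the sham arrays. The groups of both overlapped, so Chgb was the 1 marker of the 4 whose groups did not. The part of these cells in the Slc18a1 difference was not tested.

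Slc18a2 encodes VMAT2, the vesicular transporter of central and sympathetic monoamine neurons. Its single probe set 1437079_at measured 12.82, 13.12 and 12.93 on TAC A, B and C, against 12.78, 12.59 and 12.62 on sham A, B and C. Every TAC array was again above every sham array, but TAC A exceeded sham A by little. The means were 12.96 ± 0.15 in TAC ganglia and 12.66 ± 0.10 in sham ganglia (SD, n = 3 each), a log2 difference of 0.29 (SE 0.11, 95% interval 0.04 to 0.55), or 1.23-fold. Limma gave an unadjusted p of 0.0314 and an adjusted p of 0.542, and the exact permutation test p = 0.1. The unadjusted limma p was 0.0622 to 0.0862 when any 1 of TAC B, TAC C, sham B or sham C was left out. The value was highest on TAC B. Without TAC B and sham C, the pair of arrays highest in brown fat markers, the difference was 0.19 with a limma adjusted p of 0.824. With the mean of the brown fat markers on each array in the model and all arrays kept, it was 0.31 (limma adjusted p = 0.553). Mast cells and platelets also carry VMAT2. Of 8 mast cell markers only Kit was above the floor, at 6.75 to 7.10 on the TAC arrays and 6.96 to 7.02 on the sham arrays. Cpa3, Tpsb2, Mcpt4, Cma1, Fcer1a, Ms4a2 and Hdc were dim. Cpa3 was at 2.17 to 2.24 on the TAC arrays and 2.18 to 2.29 on the sham arrays. Among platelet markers Pf4 and Gp1bb were above the floor and lower on average after TAC, while Ppbp, Itga2b and Gp9 were dim. The summed linear intensity of Pf4 and Gp1bb was 276 to 334 on the TAC arrays and 315 to 360 on the sham arrays. The part of brown fat, mast cells or platelets in the Slc18a2 difference was not tested.

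Cyb561 encodes cytochrome b561, the electron carrier of the vesicle membrane that keeps ascorbate reduced for dopamine beta-hydroxylase. Its probe set 1417507_at measured 13.45, 13.50 and 13.55 on TAC A, B and C, against 13.49, 13.46 and 13.50 on sham A, B and C. The groups overlapped throughout, with a log2 difference of 0.02 (SE 0.07, limma adjusted p = 0.938). The 95% interval ran from -0.15 to 0.19, or from 0.899-fold to 1.14-fold. It was the narrowest interval among the 10 member probe sets.

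**Figure D2:**
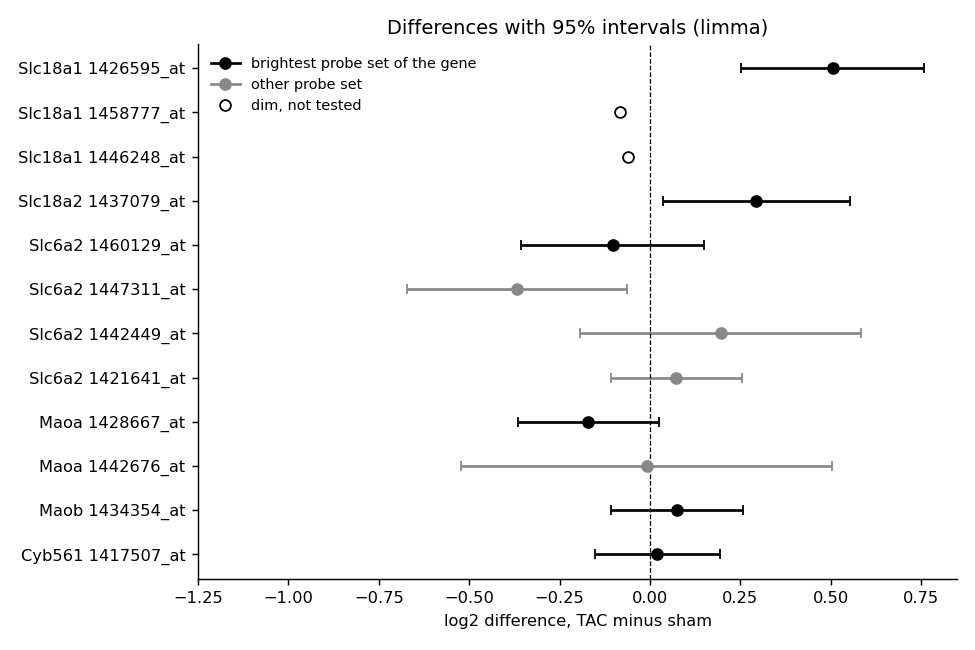
Log2 difference, TAC minus sham, for the 12 member probe sets, with limma's 95% interval for the 10 that were tested; black points are the brightest probe set of each gene, grey points the others and open points the dim ones. The intervals of Slc18a1 1426595_at (0.25 to 0.76), Slc18a2 (0.04 to 0.55) and Slc6a2 1447311_at (-0.67 to -0.06) do not include 0, and no adjusted p was under 0.05.

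Slc6a2 encodes the noradrenaline transporter, which returns released noradrenaline to the neuron and is the target of reuptake inhibitors. It was read by 4 probe sets, all above the floor, and they did not give 1 direction. The brightest, 1460129_at, measured 14.36, 14.24 and 14.39 on TAC A, B and C, against 14.30, 14.61 and 14.39 on sham A, B and C. Those groups overlapped, and the high sham mean came from sham B. The log2 difference was -0.10 (SE 0.10, 95% interval -0.36 to 0.15, limma adjusted p = 0.741), and without sham B it was -0.02.

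Probe set 1447311_at measured 11.91, 11.84 and 11.82 on TAC A, B and C, against 12.03, 12.48 and 12.16 on sham A, B and C. Here every TAC array was below every sham array, with a tight TAC group and a wide sham group. The means were 11.86 ± 0.05 in TAC ganglia and 12.22 ± 0.23 in sham ganglia (SD, n = 3 each), a log2 difference of -0.37 (SE 0.13, 95% interval -0.67 to -0.06), or 0.775-fold. Limma gave an unadjusted p of 0.0251 and an adjusted p of 0.542, and the exact permutation test p = 0.1. Sham B was again the highest array, and without it the difference was -0.24.

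The remaining probe sets of Slc6a2 had higher TAC means. Probe set 1442449_at measured 9.69, 10.27 and 9.77 on TAC A, B and C, against 9.64, 9.77 and 9.73 on sham A, B and C. TAC B alone stood clear of the sham range, and the log2 difference was 0.20 (SE 0.16, limma adjusted p = 0.685), or 0.02 without TAC B. Probe set 1421641_at, the 1 designed on the RefSeq mRNA of the gene, measured 8.74, 8.71 and 8.73 on TAC A, B and C, against 8.61, 8.74 and 8.61 on sham A, B and C. Sham B lay among the TAC arrays, and the log2 difference was 0.07 (SE 0.08, 95% interval -0.11 to 0.25, limma adjusted p = 0.746). The other 3 were designed on expressed sequence tags, per the accessions in the annotation, and which part of the transcript each reads was not analysed here.

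**Figure D3:**
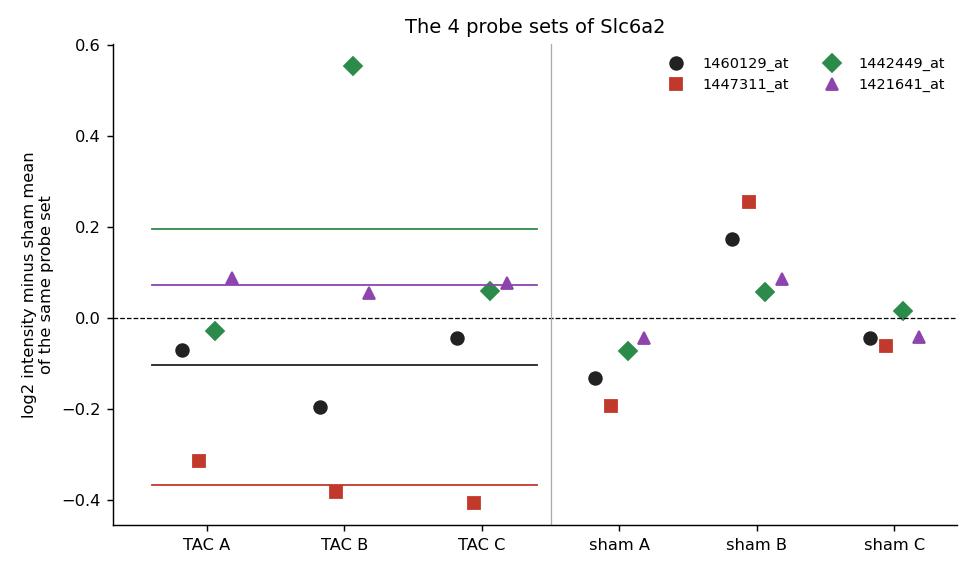
Log2 intensity of the 4 Slc6a2 probe sets on each array, with the sham mean of the same probe set subtracted; the short horizontal lines over the TAC arrays are the TAC means. On the TAC arrays 1447311_at averages -0.37 and 1460129_at -0.10, while 1442449_at averages 0.20 with TAC B highest, and 1421641_at averages 0.07; on sham B all 4 lie above their sham mean.

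Whether the probe sets of a gene differed from each other in their TAC minus sham difference was tested on the difference between 2 probe sets within each array. There were 7 pairs, 6 of Slc6a2 and 1 of Maoa, and for 4 of them, all of Slc6a2, the TAC and sham arrays did not overlap (exact permutation p = 0.1 each, the smallest possible, and 0.175 after Benjamini-Hochberg adjustment over the 7). The widest gap was between 1447311_at and 1442449_at, with a gap of -0.56 (first minus second, as in the pairs that follow). Next was 1447311_at against 1421641_at, at -0.44. In that pair the within-array difference was 3.17, 3.13 and 3.08 on TAC A, B and C, against 3.42, 3.74 and 3.55 on sham A, B and C, so the separation did not rest on 1 array. The gap was 0.26 between 1460129_at and 1447311_at, which both had lower TAC means, and -0.18 between 1460129_at and 1421641_at. All of the 4 but the last hold 1447311_at, whose groups did not overlap on their own. The pairs share probe sets, so they are not separate results. How often pairs of probe sets of other genes separate was not computed. None of the 7 pairs passed at 0.05, which 3 against 3 arrays cannot reach. With all 4 probe sets averaged, Slc6a2 differed by -0.05 (limma adjusted p = 0.851).

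The monoamine oxidases deaminate noradrenaline that has returned to the cytosol. MAO-A, encoded by Maoa, is the form known from noradrenergic neurons, and it prefers noradrenaline and serotonin. Probe set 1428667_at measured 12.46, 12.31 and 12.34 on TAC A, B and C, against 12.50, 12.61 and 12.50 on sham A, B and C. Every TAC array was below every sham array, TAC A only narrowly. The means were 12.37 ± 0.08 in TAC ganglia and 12.54 ± 0.06 in sham ganglia (SD, n = 3 each), a log2 difference of -0.17 (SE 0.08, 95% interval -0.37 to 0.02), or 0.888-fold. Limma gave an unadjusted p of 0.0771 and an adjusted p of 0.556, and the exact permutation test p = 0.1.

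A second Maoa probe set, 1442676_at, had overlapping groups. It measured 12.20, 11.89 and 12.21 on TAC A, B and C, against 12.19, 12.47 and 11.67 on sham A, B and C, with a log2 difference of -0.0094 (SE 0.21, limma adjusted p = 0.992). Its spread was the widest of all member probe sets, with a sham range of 0.80. The lowest value of each group fell on sham C and TAC B. The brown fat gene Ucp1 measured 6.82 on TAC B and 8.53 on sham C, and no other array exceeded 4.64. With the brown fat score of each array in the model, the log2 difference of 1442676_at was -0.19 (limma adjusted p = 0.620), and 1428667_at was at -0.19 in the same fit. With the skeletal muscle score in the model 1442676_at was at -0.19 (limma adjusted p = 0.802). It was at -0.23 without sham C and at -0.12 without both sham C and TAC B (limma adjusted p = 0.747 and 0.862). In 4 of 18 alternatives its sign turned. It was at 0.21 with array weights, 0.17 without sham B, 0.10 without TAC B and 0.03 without sham A. The part of brown fat or muscle in these values was not tested. Averaged over both probe sets, Maoa differed by -0.09 (limma adjusted p = 0.819). The within-array difference between the Maoa probe sets was 0.26, 0.42 and 0.12 on TAC A, B and C, against 0.32, 0.14 and 0.83 on sham A, B and C, overlapping groups with an exact permutation p of 0.6.

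MAO-B, encoded by Maob, is known more from glia, serotonergic neurons and platelets, and it prefers phenylethylamine. Its probe set 1434354_at measured 12.58, 12.46 and 12.61 on TAC A, B and C, against 12.48, 12.49 and 12.46 on sham A, B and C. TAC B lay within the sham range and TAC A and C above it. The log2 difference was 0.07 (SE 0.08, 95% interval -0.11 to 0.26, limma adjusted p = 0.744), or 1.05-fold, and 0.05 to 0.12 with 1 array left out. Of 10 satellite glia and Schwann cell markers 8 were above the floor. Their summed linear intensity was 15718 on TAC B, 21103 to 22968 on TAC A and C and 22706 to 24868 on the sham arrays. Fabp7, the brightest of the 8, weighs most in this sum, at 13.11 on TAC B and 13.73 to 14.08 on the other arrays. The markers were not uniform. S100b, Fabp7, Kcnj10, Mbp and Foxd3 were lowest on TAC B. Sox10, Erbb3 and Cdh19 were lowest on sham A, at 9.37, 9.40 and 10.71, against 9.49, 9.45 and 11.21 on TAC B. The part of glia in the Maob values was not tested.

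**Figure D4:**
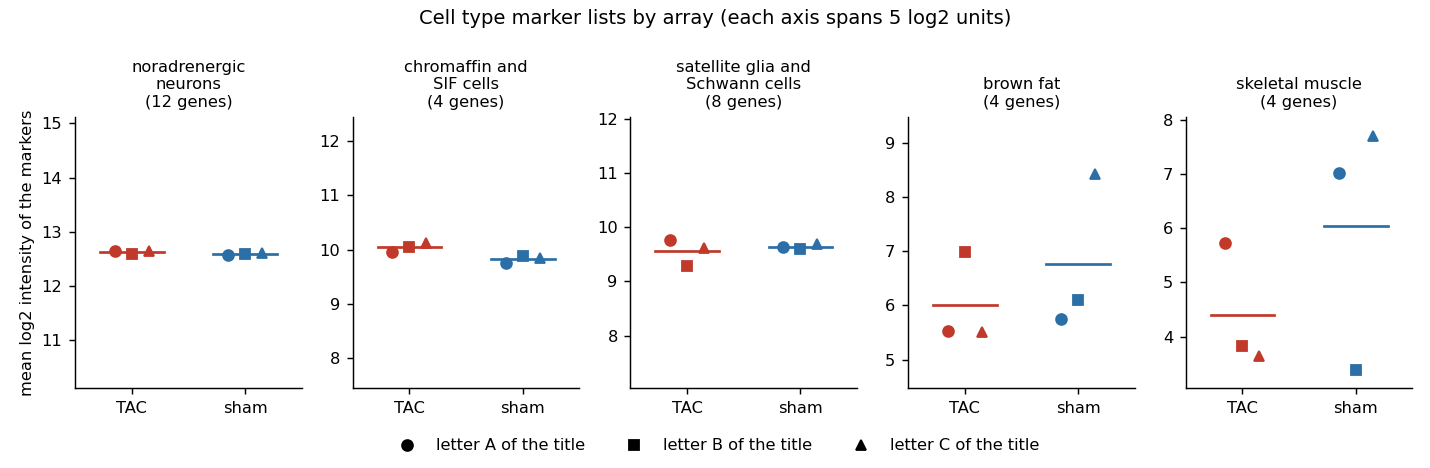
Mean log2 intensity of 5 cell type marker lists on the 3 TAC arrays (red, left) and the 3 sham arrays (blue, right), with group means as lines; each axis spans 5 log2 units. The noradrenergic neuron markers differ by 0.04 between groups, while the brown fat and skeletal muscle markers spread over more than 1 log2 unit within each group.

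The genes were set against each other in the same way, with the brightest probe set of each of the 6 genes, in 15 pairs chosen after the values had been seen. The log2 difference of Slc18a1 exceeded that of Slc6a2 by 0.61, of Maoa by 0.68, of Cyb561 by 0.49 and of Maob by 0.43. In each of these 4 pairs the within-array value separated all TAC from all sham arrays (exact permutation p = 0.1, adjusted p = 0.188 over the 15 pairs). All 4 share Slc18a1, whose groups did not overlap on their own, so they are not separate results. Slc18a2 exceeded Maoa by 0.46 and Cyb561 by 0.27, also without overlap and with the same p-values, and the gap to Cyb561 was 0.16 without both sham C and TAC B. It exceeded Slc6a2 by 0.40, with overlapping groups and an exact permutation p of 0.2. Between the vesicular transporters themselves the gap was 0.21, with overlapping groups (exact permutation p = 0.5), and it was 0.05 without TAC A and 0.14 without sham A. Against Maob, the gap was -0.24 for Maoa and -0.18 for Slc6a2, both without overlap, and the gap for Slc6a2 was -0.10 without sham B. The other pairs overlapped. Slc18a2 and Maoa also had groups that did not overlap on their own, so the pairs that hold them are not separate results either. How often pairs of other genes separate was not computed.

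Taken relative to the mean of the noradrenergic neuron markers on the same array, the differences were 0.46 for Slc18a1, 0.25 for Slc18a2, -0.14 for Slc6a2 1460129_at, -0.41 for Slc6a2 1447311_at, -0.21 for Maoa 1428667_at and -0.02 for Cyb561. Limma gave an adjusted p of at least 0.555 for each of these. Cyb561 was the 1 whose sign turned on that scale.

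The rest of the pathway was read from lists chosen with earlier results known. Of 10 genes of catecholamine and tetrahydrobiopterin synthesis, 9 were above the floor, 6 had a higher TAC mean and 3 a lower one, with a median log2 difference of 0.03. Over all probe sets tested the median was also 0.03. Higher without overlap were 2 of the 9, Th and Pts, where 9.02% of all probe sets tested were. In this and the lists that follow, every gene at an unadjusted p under 0.05 was higher after TAC, where 6.03% of all probe sets tested were. The 1 in this list was Th, tyrosine hydroxylase, which makes the first and rate-limiting step, at 13.77 to 13.88 on the TAC arrays and 13.55 to 13.66 on the sham arrays (log2 difference 0.24, SE 0.08, limma adjusted p = 0.531). The vesicular proton pump supplies the gradient that both VMATs use. Of its 17 listed subunit and accessory genes 16 were above the floor, 12 higher and 4 lower after TAC, with a median of 0.11. Higher without overlap were 3 of the 16, Atp6v1b2, Atp6v1g2 and Atp6ap1, against the same 9.02%. The 2 of 16 at an unadjusted p under 0.05, against 6.03% of all probe sets, were Atp6v1b2, a catalytic-sector subunit, at 0.28 (SE 0.08), and Atp6v1g2, the neuronal G subunit, at 0.22 (SE 0.09), and limma gave adjusted p-values of 0.516 and 0.546.

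Among the relatives of Cyb561 and the carriers of ascorbate, 4 of 8 were above the floor and all 4 had a higher TAC mean. The smallest difference was 0.02 and the median 0.18, with 2 at an unadjusted p under 0.05. Of the 4 genes, 2 were higher without overlap, where 9.02% of all probe sets tested were. Slc23a2, the sodium-dependent ascorbate transporter of neurons and chromaffin cells, measured 6.47, 6.84 and 6.54 on TAC A, B and C, against 6.17, 6.23 and 5.73 on sham A, B and C, a log2 difference of 0.57 (SE 0.17, limma adjusted p = 0.516) with groups that did not overlap. Cyb561a3, a lysosomal relative of cytochrome b561, differed by 0.20 (SE 0.08, limma adjusted p = 0.544). Aldehyde-clearing enzymes act on the product of monoamine oxidase. Of 11 listed, 10 were above the floor, 3 higher and 7 lower after TAC, with a median of -0.04 and 0 at an unadjusted p under 0.05. Aldh2, the mitochondrial aldehyde dehydrogenase, measured 10.46, 10.36 and 10.41 on TAC A, B and C, against 10.66, 10.50 and 10.59 on sham A, B and C, a log2 difference of -0.17 (limma adjusted p = 0.556). Lower without overlap were 2 of the 10, Aldh2 and Aldh7a1, where 8.85% of all probe sets tested were.

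Of the other monoamine carriers and methylating enzymes, 4 of 9 were above the floor, 1 higher and 3 lower after TAC, with a median of -0.14 and 0 at an unadjusted p under 0.05. Slc29a4, the plasma membrane monoamine transporter of the low-affinity, high-capacity kind, measured 9.11, 8.89 and 9.03 on TAC A, B and C, against 9.13, 9.24 and 9.29 on sham A, B and C. Every TAC array was below every sham array, again narrowly on TAC A (log2 difference -0.21, SE 0.09, limma adjusted p = 0.553). It was the 1 of the 4 genes that was lower without overlap, where 8.85% of all probe sets tested were. Slc18b1, a vesicular polyamine transporter related to the VMATs, differed by -0.30 (SE 0.16, limma adjusted p = 0.573) with groups that overlapped.

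The genes whose brightest probe set followed a member most closely were found from deviations from the group means over the 6 arrays, among 3247 or 3248 other genes with an SD of at least 0.2. They were Dleu2 (Pearson r = 0.988) and Rin2 (0.976) for Slc18a1, Nars2 (0.996) and Rnf216 (0.995) for Slc18a2, and Banp (0.989) and Tbc1d2b (0.987) for Slc6a2. For Maoa they were Tpmt (0.9999) and Mogs (0.993), for Maob Erdr1 (0.997) and Tmem64 (0.995), and for Cyb561 Mpv17l2 (0.970) and Pygl (0.966). All genes were read on the same 6 animals and normalized together, and with so few arrays 6 to 56 genes reached an r over 0.95 with each member.

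The differences were computed again under 18 alternatives for each tested probe set, among them each array left out. The difference of Slc18a1 1426595_at was 0.41 to 0.58 over these and its limma adjusted p at least 0.238. Slc18a2 was at 0.19 to 0.36, Slc6a2 1447311_at at -0.47 to -0.24 and Maoa 1428667_at at -0.22 to -0.14, each on 1 side of 0. Maoa 1442676_at and Cyb561 lay on both sides of 0.

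**Figure D5:**
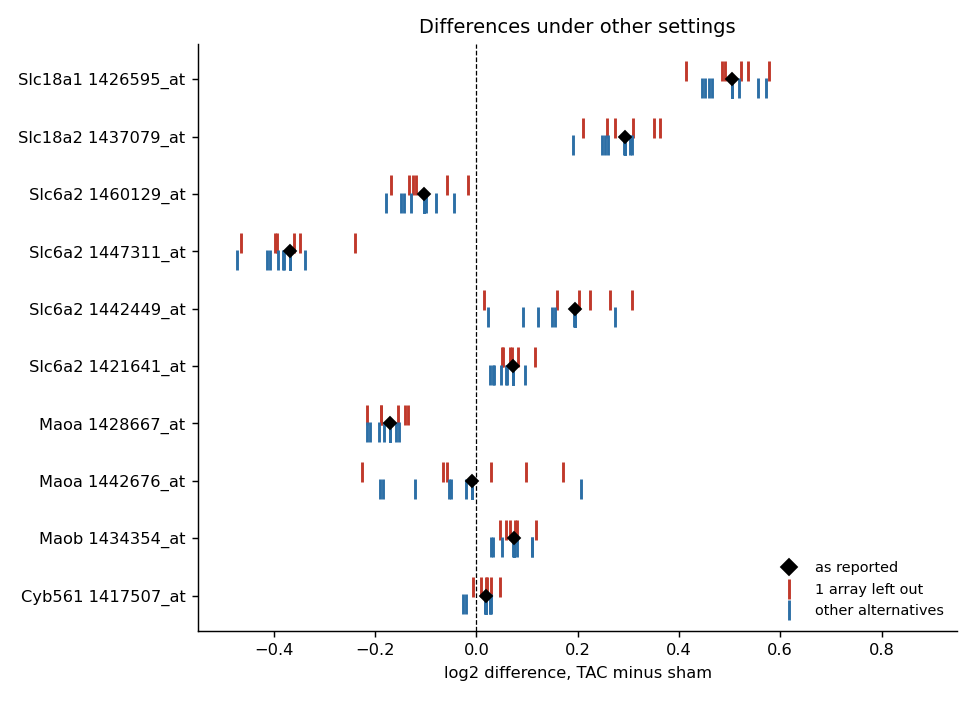
Log2 difference, TAC minus sham, of the 10 tested member probe sets as reported (black diamonds), with each of the 6 arrays left out in turn (red) and under the other alternatives (blue). Slc18a1 1426595_at stays between 0.41 and 0.58 and Slc18a2 between 0.19 and 0.36, while Cyb561 1417507_at and Maoa 1442676_at lie on both sides of 0.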

How the data were processed

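The 6 samples are 1 array each, 3 TAC and 3 sham, grouped by their titles. The authors deposited 1 linear intensity per probe set. Per the submitters' processing notes it comes from GCRMA, a method that removes probe-sequence background, normalizes the arrays together and summarises probes. The GCRMA version is not stated in the labels. For all tests here log2 of the deposited intensity was taken, without a pseudocount. The 64 Affymetrix controls and 27487 probe sets with a mean log2 under 4 were left out. GCRMA compresses values near background and gives no detection call. Symbols came from GEO's platform annotation. TAC and sham were compared with limma 3.58.1 in R 4.3.3 (lmFit, eBayes, two-sided), adjusted by Benjamini-Hochberg over 17550 probe sets at a threshold of 0.05. SEs and intervals are limma's moderated ones. Exact permutation tests (scipy 1.17.1) cannot go below p = 0.1 with 3 against 3. Precision is limited by the number of arrays. The brightest probe set above the floor stood for a gene in counts. Every member was named. Of each pathway list, values are given for up to 2 genes of smallest p, and the genes without overlap are named. Members and lists were chosen with earlier results of these data known. No 2 arrays shared more than 8 identical values. The deviations of same-lettered arrays correlated at 0.0841, -0.00308 and -0.166 for A, B and C. Those of arrays with different letters correlated at -0.133 to 0.139. The labels do not say whether the letters pair samples, and so few arrays cannot settle it. The alternatives covered the floor, variance model, array weights, normalization, covariates, scale, replicate block and arrays left out. Figures were drawn with matplotlib 3.10.9.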

Additional observations from a re-analysis of the deposited data

How the results depend on the processing

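No member was called at an adjusted p under 0.05 under any alternative tried. Probe sets called over the whole array stayed at 0. The exceptions were 110 by a rule of unadjusted p below 0.01 plus an absolute log2 difference from 0.58 up, and a count of 0 to 1 when single arrays were dropped (Mir670hg without TAC B, Sst without TAC C). The 2 members at an unadjusted p under 0.05, Slc18a1 and Slc18a2, became 1, Slc18a1, with the title letter as a replicate block, with sham C and TAC B both dropped, and with either the brown fat or the skeletal muscle score in the model. The count was 1 to 2 when single arrays were dropped, and 1 without TAC B, TAC C, sham B or sham C. It was 3, Maoa being added, with no floor, an intensity trend and an ordinary linear model. Relative to the noradrenergic markers it was 2, with Maoa (unadjusted p = 0.0401) in place of Slc18a2 (0.0771). Whether the letters pair the arrays is not known, and the block changed no other count. Over 180 values of member probe sets under the alternatives, 7 turned in sign. Maoa 1442676_at was 0.21 with array weights and -0.23 to 0.17 with 1 array left out. Cyb561 was -0.026 with median centring, -0.021 relative to the noradrenergic markers and -0.0065 to 0.046 with 1 array left out. The cause of these changes was not tested. The unadjusted p was under 0.05 in 18 of 18 alternatives for Slc18a1, in 14 for Slc6a2 1447311_at and in 9 for Slc18a2. Maoa 1428667_at, at 0.0771 as reported, was under 0.05 in 4. GCRMA's handling of values near background limits what the dim Slc18a1 probe sets can show.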
